A study of Mus musculus with 48 samples.

Results

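The acyl-CoA thioesterase genes are described here in mouse liver, taken as every listed gene whose symbol is Acot followed by a number. The frozen (FROZ) table lists 8 of them among 11275 genes (Acot1, Acot2, Acot3, Acot6, Acot7, Acot9, Acot12 and Acot13). The formalin-fixed paraffin-embedded (FFPE) table lists 5 among 6673 genes (Acot1, Acot3, Acot7, Acot12 and Acot13), all of them also in the FROZ table. Acot4, Acot5, Acot8, Acot10 and Acot11 are in neither table and were not analysed here.

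The livers came from 24 male B6C3F1 mice, a hybrid strain, 4 weeks old, in 4 groups of 6. Controls drank vehicle water (0 mg/kg-d), and the other groups drank dichloroacetic acid (DCA), an inhibitor of pyruvate dehydrogenase kinase, for 6 days at 198, 313 or 427 mg per kg body weight per day. Each mouse gave a FROZ library, from mixed lobes, and an FFPE library, from the left lateral and right medial lobes. Both tissues had been stored for decades. FROZ libraries were made from RNA isolated earlier, and FFPE libraries from lysed tissue sections without RNA isolation. Preservation, lobe and kind of input therefore cannot be told apart. All libraries were read by TempO-Seq, in which pairs of short detector oligos that anneal next to each other on a transcript are ligated, amplified and counted.

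Acyl-CoA thioesterases split an acyl-CoA into a free fatty acid and coenzyme A, and so set the supply of both in each compartment of the cell. In the mouse, Acot1 to Acot6 are alpha/beta-hydrolase enzymes encoded side by side, while Acot7 to Acot13 belong mostly to the unrelated hotdog-fold family. Acot1, Acot7 and Acot12 are known as cytosolic, Acot2, Acot9 and Acot13 as mitochondrial, and Acot3 and Acot6 as peroxisomal. Several genes of the cluster are known targets of PPAR alpha, the nuclear receptor that turns on fatty acid oxidation in liver.

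The cluster lies on the plus strand of chromosome 12 (GRCm38), where the 6 genes span 123.5 kb from Acot2, which starts at base 83987861, to Acot6, which ends at base 84111349. Acot1 is at chr12:84009490-84018371, Acot2 at chr12:83987861-83993873, Acot3 at chr12:84052144-84060402 and Acot6 at chr12:84100654-84111349. The other listed members are dispersed, with Acot7 at chr4:152178134-152271855, Acot9 at chrX:155262443-155297654, Acot12 at chr13:91741512-91786148 and Acot13 at chr13:24817948-24831540. Each is annotated as protein coding.

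Values are log2(CPM + 1), where CPM is reads per 1000000 mapped reads. The smallest steps between values put the depth at 6.69 M to 9.84 M reads on listed genes in FROZ and 1.83 M to 6.01 M in FFPE (M, 1000000 reads), so that 1 read was worth 0.102 to 0.1495 CPM in FROZ and 0.166 to 0.546 CPM in FFPE. The shallowest FFPE library, of animal 49, listed 1586 genes at 0. Detector oligos differ in efficiency, so levels were not compared between genes. All 7 hepatocyte markers checked were listed in FROZ and 6 of them in FFPE, and none of the 3 adipocyte markers was listed in either. The summed level of the hepatocyte markers was 21922 to 27720 CPM in FROZ controls and 19261 to 23474 CPM at 427 mg/kg-d, where 1 marker was higher and 1 lower. In FFPE the sum was 37768 to 50362 CPM in controls and 26146 to 31169 CPM at 427 mg/kg-d, without overlap, and 1 marker was lower. In the FROZ livers of the highest dose group, 3 of 5 listed Kupffer cell markers, 1 of 5 endothelial markers and 1 of 5 listed stellate cell markers were lower than in controls. The share of all genes called lower is not given beside these marker counts, so they were not read as changes of a cell type. The part of these marker changes in the Acot results was not tested. In bulk liver, fewer cells of a type and less RNA per cell cannot be told apart.

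The first question was which members responded to DCA in FROZ liver, and at which dose. Acot1, Acot2 and Acot3, one gene of each compartment and all of the chromosome 12 cluster, rose by more than 10-fold at 313 and 427 mg/kg-d, while Acot6 of the same cluster rose less and from a few reads. Acot7, Acot12 and Acot13, encoded elsewhere, rose by less than 2-fold at 427 mg/kg-d, and Acot9 passed the test at 313 mg/kg-d alone. No member passed at 198 mg/kg-d by the test used here. For Acot1 the paper reports a significant increase at that dose in TempO-Seq of frozen liver, by a Wilcoxon rank sum test of marker genes. A gene is counted as past the test at an FDR-adjusted p under 0.05 (limma, 24 libraries, adjusted over 11275 genes). By this rule 0 of 8 members passed at 198 mg/kg-d, against 1.56% of all genes, with 1 member (Acot7) at an unadjusted p under 0.05. The share of all genes under the unadjusted limit is not given, so Acot7 is not counted there. At 313 mg/kg-d 7 of 8 passed, all higher, against 20.5% of all genes called higher. Another 7 of 8 passed at 427 mg/kg-d, again all higher, against 22.7%. With a change above 2-fold as well, the counts were 3 members at 313 mg/kg-d (1.43% of all genes) and 4 at 427 mg/kg-d (2.26%). An offset of 0.1 CPM gave 4 members at 313 mg/kg-d, and the share of all genes with that offset is not given. The median log2 difference of the 8 members was 0.08, 0.64 and 1.26 at the 3 doses, beside 0.07, 0.11 and 0.10 over all genes.

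**Figure D1:**
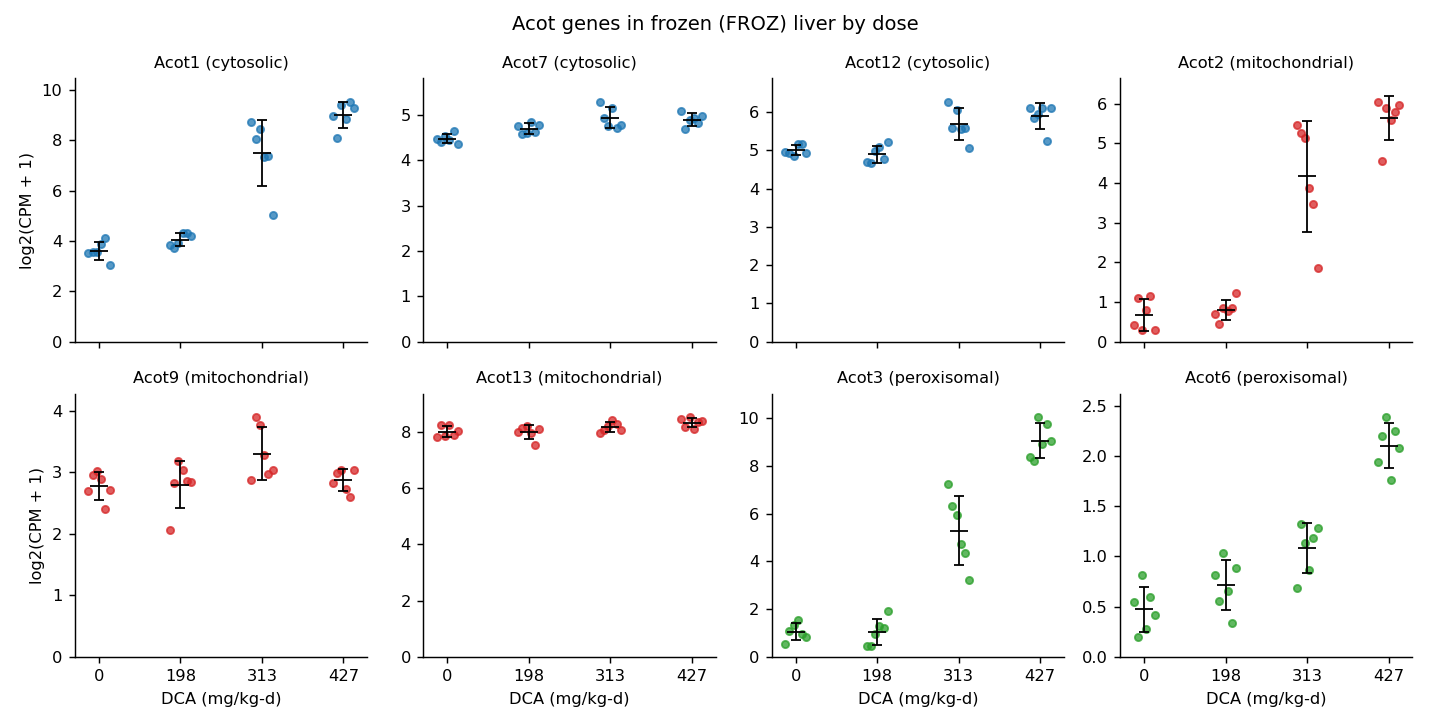
Level of each Acot gene in FROZ liver as log2(CPM + 1) against dose in mg/kg-d, with 1 point per animal and the bar giving mean ± SD of 6 animals. The vertical axes start at 0 and differ between genes. Acot2 and Acot3 stay near control level at 198 mg/kg-d, where 3 of 6 animals lie above all controls for Acot1. Acot1, Acot2 and Acot3 rise at 313 and 427 mg/kg-d, with a wide spread at 313 mg/kg-d, while Acot13 moves little.

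Acot1, which hydrolyses long-chain acyl-CoA in the cytosol, ranged from 7.20 to 16.4 CPM in the 6 controls (median 10.7 CPM, 65 to 161 reads). It ranged from 12.1 to 19.2 CPM at 198 mg/kg-d (median 15.8 CPM). At 313 mg/kg-d it ranged from 31.9 to 425 CPM (median 213 CPM). The highest dose gave 271 to 728 CPM (median 567 CPM). The 2 higher doses lay above every control, and 3 of 6 animals did so at 198 mg/kg-d. On the log2(CPM + 1) scale the difference from controls was 0.44 ± 0.38 (SE) at 198 mg/kg-d, FDR-adjusted p = 0.58. The difference was 3.89 ± 0.38 at 313 mg/kg-d, FDR-adjusted p = 3.7e-08. The difference was 5.41 ± 0.38 at 427 mg/kg-d, FDR-adjusted p = 2.8e-11, and the mean CPM was 47.2 times that of controls. All 4 groups share this SE, and the spread was widest at 313 mg/kg-d (SD 1.33, against 0.37 in controls and 0.26 at 198 mg/kg-d). With only controls and 198 mg/kg-d in the limma fit, Acot1 differed by 0.44 ± 0.17 (adjusted p = 0.21). In that fit the SE was 0.18 for Acot2 and 0.23 for Acot3, and no member passed.

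Acot3, the broad-range peroxisomal enzyme of the cluster, was at 0.458 to 1.91 CPM in controls (median 1.01 CPM, 4 to 18 reads). At 198 mg/kg-d it was at 0.352 to 2.77 CPM (median 1.11 CPM), with 1 animal above and 2 below the control range. At 313 mg/kg-d it was at 8.33 to 150 CPM (median 43.0 CPM), and at 427 mg/kg-d at 295 to 1052 CPM (median 506 CPM). Neither of the 2 higher groups overlapped the controls, and the 427 mg/kg-d group lay wholly above the 313 mg/kg-d group. Relative to controls the log2 difference was 0.00 ± 0.45 at 198 mg/kg-d, where the adjusted p was 0.999. The log2 difference was 4.25 ± 0.45 at 313 mg/kg-d, with an adjusted p of 1.1e-07. The log2 difference was 8.02 ± 0.45 at 427 mg/kg-d, with an adjusted p of 5.5e-13, the 2nd largest increase of 11275 genes. The added offset of 1 CPM shrinks the change of a gene this low in controls, and its mean CPM at 427 mg/kg-d was 532 times the control mean.

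Acot2, the mitochondrial matrix enzyme for long-chain acyl-CoA, was at 0.218 to 1.22 CPM in controls (median 0.544 CPM, only 2 to 12 reads). It was at 0.352 to 1.32 CPM at 198 mg/kg-d (median 0.756 CPM), and 5 of 6 animals fell within the control range. It was at 2.61 to 42.7 CPM at 313 mg/kg-d (median 23.9 CPM) and at 22.4 to 64.4 CPM at 427 mg/kg-d (median 56.3 CPM). All animals of both doses lay above all controls. Against controls Acot2 differed on the log2 scale by 0.13 ± 0.40 at 198 mg/kg-d (adjusted p = 0.91), 3.50 ± 0.40 at 313 mg/kg-d (adjusted p = 4.0e-07) and 4.96 ± 0.40 at 427 mg/kg-d (adjusted p = 4.65e-10). The mean CPM at 427 mg/kg-d was 79.4 times that of controls, a ratio that rests on few control reads.

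Acot6, a peroxisomal enzyme for branched chains, was the least changed listed member of the cluster. Controls held 1 to 7 reads (0.146 to 0.762 CPM, median 0.395 CPM), and the 198 mg/kg-d group 2 to 8 reads (median 0.670 CPM). The 313 mg/kg-d group held 5 to 12 reads (median 1.24 CPM) and the 427 mg/kg-d group 20 to 39 reads (2.39 to 4.22 CPM, median 3.42 CPM). The highest dose lay above every control, and at 313 mg/kg-d 5 of 6 animals did. The log2 difference from controls was 0.24 ± 0.14 (adjusted p = 0.41), 0.61 ± 0.14 (adjusted p = 0.0025) and 1.63 ± 0.14 (adjusted p = 1.9e-09) at the 3 doses. At this depth the size of the change rests on a handful of reads, and with an offset of 0.1 CPM the log2 difference at 427 mg/kg-d was 2.87. The mean CPM of Acot6 was 2.83 times that of controls at 313 mg/kg-d and 8.28 times at 427 mg/kg-d.

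Acot12, a cytosolic enzyme of liver that hydrolyses acetyl-CoA, was at 27.9 to 34.8 CPM in controls (median 29.95 CPM) and at 24.4 to 36.1 CPM at 198 mg/kg-d (median 28.5 CPM). It was at 32.3 to 75.4 CPM at 313 mg/kg-d (median 47.2 CPM) and at 37.1 to 68.4 CPM at 427 mg/kg-d (median 64.2 CPM). The highest dose lay wholly above the controls, with 1 animal of the 313 mg/kg-d group inside their range. The log2 difference from controls was -0.10 ± 0.16 (adjusted p = 0.80), 0.68 ± 0.16 (adjusted p = 0.0021) and 0.89 ± 0.16 (adjusted p = 8.2e-05) in order of dose.

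Acot7, a cytosolic long-chain enzyme best known from brain, was at 19.5 to 23.97 CPM in controls, 23.0 to 28.0 CPM at 198 mg/kg-d, 25.4 to 37.9 CPM at 313 mg/kg-d and 25.0 to 33.1 CPM at 427 mg/kg-d. Every animal of the 2 higher doses exceeded every control. The log2 difference from controls was 0.22 ± 0.10 (adjusted p = 0.23), 0.46 ± 0.10 (adjusted p = 0.00078) and 0.43 ± 0.10 (adjusted p = 0.0013), so that 313 and 427 mg/kg-d gave nearly the same value.

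The mitochondrial members outside the cluster were the only 2 members to pass at just 1 of the doses. Acot13, which is bound to mitochondria and acts on long chains, had medians of 247, 264, 281 and 324 CPM from controls to the highest dose, with 184 CPM as the lowest and 362 CPM as the highest of the 24 values. It passed the test at 427 mg/kg-d only, with a log2 difference of 0.32 ± 0.11 (adjusted p = 0.026), 4 of 6 animals being above all controls. Under median-ratio scaling, which removed the 0.10 shift of all genes, the difference was 0.17 (adjusted p = 0.30). Leaving out control animal 3, 5 or 7 or treated animal 97 or 99 also gave adjusted p-values of 0.057 to 0.067.

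Acot9, a mitochondrial enzyme of broad chain-length range, had medians of 5.96, 6.18, 7.92 and 6.52 CPM from controls to the highest dose. It stood higher at 313 mg/kg-d, where it ranged from 6.36 to 13.8 CPM against 4.26 to 7.08 CPM in controls, and 4 of 6 animals exceeded all controls. Its log2 difference there was 0.52 ± 0.18 (adjusted p = 0.031), and at 427 mg/kg-d it was 0.09 ± 0.18 (adjusted p = 0.74). The difference between these 2 doses did not pass the test (-0.43 ± 0.18, adjusted p = 0.21). The call at 313 mg/kg-d was lost with median-ratio scaling (0.40, adjusted p = 0.11) and on leaving out control animal 3, 7 or 8 or treated animal 74 or 75 (adjusted p-values of 0.053 to 0.099).

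**Figure D2:**
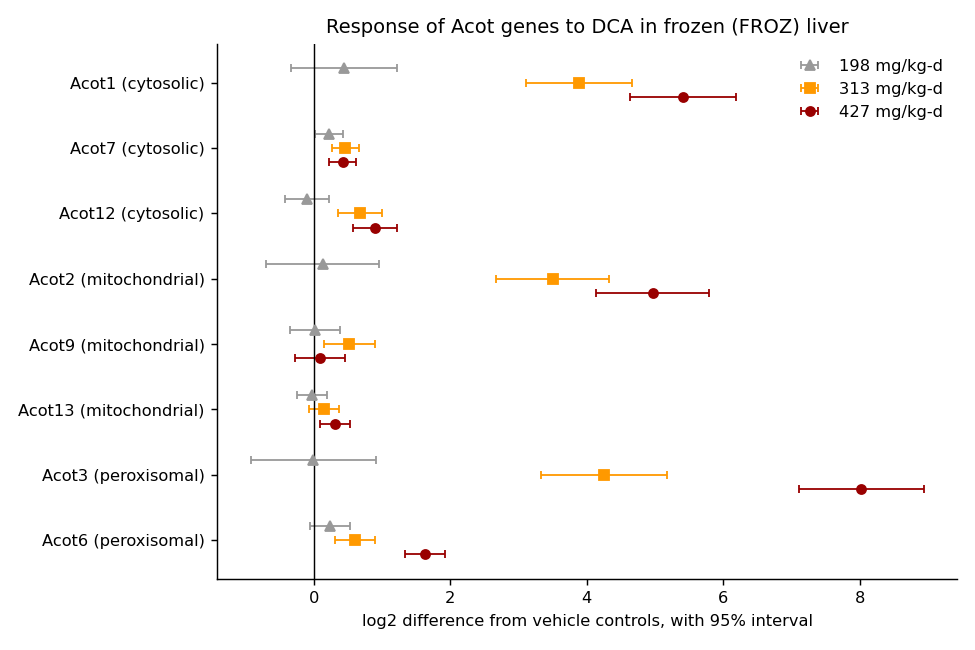
Difference of each Acot gene from vehicle controls in FROZ liver, in log2(CPM + 1), with its 95% interval from the limma fit of all 4 groups, at 198 (triangles), 313 (squares) and 427 mg/kg-d (circles), genes ordered by compartment. Acot1, Acot2 and Acot3 lie at 3.50 or above at 313 and 427 mg/kg-d, and the intervals of all members but Acot7 include 0 at 198 mg/kg-d.

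Read by compartment, members of one compartment differed in size of change. Of the 3 cytosolic members, Acot1 exceeded 2-fold at 427 mg/kg-d and Acot7 and Acot12 did not. Of the 3 mitochondrial members, only Acot2 did, and both peroxisomal members did. The median log2 difference at 427 mg/kg-d was 0.89 for the cytosolic, 0.32 for the mitochondrial and 4.82 for the peroxisomal members, the last being the mean of only 2 genes. The 4 members past 2-fold at this dose were the 4 listed genes of the chromosome 12 cluster, and without animal 101 Acot12 became the 5th (1.02). Every treated animal was above every control for 4 of 8 members at 313 mg/kg-d (9.14% of all genes), namely Acot1, Acot2, Acot3 and Acot7. The same held for 6 of 8 at 427 mg/kg-d (11.4% of all genes), namely these 4, Acot6 and Acot12.

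The steps between neighbouring doses were tested next. From 198 to 313 mg/kg-d 4 members rose, against 8.05% of all genes, with log2 steps of 3.44 ± 0.38 for Acot1, 3.37 ± 0.40 for Acot2, 4.25 ± 0.45 for Acot3 and 0.78 ± 0.16 for Acot12 (adjusted p from 5.45e-07 to 0.0015). From 313 to 427 mg/kg-d 4 members rose, against 1.73% of all genes. Acot3 rose by a further 3.77 ± 0.45 (adjusted p = 1.2e-05), Acot6 by 1.02 ± 0.14 (adjusted p = 0.00012), Acot1 by 1.52 ± 0.38 (adjusted p = 0.023) and Acot2 by 1.46 ± 0.40 (adjusted p = 0.043). With an offset of 0.1 CPM the last step of Acot2 no longer passed (1.56, adjusted p = 0.087). Acot12 did not pass at this step (0.21 ± 0.16, adjusted p = 0.51).

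Whether 2 members changed by different amounts was tested within libraries, from the difference of their log2 values in each library. Scaling of a library cancels in this difference only for members well above the offset of 1 CPM, which Acot2, Acot3 and Acot6 were not in controls. All 28 pairs of the 8 members were compared between the 6 animals at 427 mg/kg-d and the 6 controls by an exact permutation test (two-sided, 924 divisions of 12 animals, smallest possible p 0.0022), with p adjusted over the 28 pairs. The difference changed in 25 pairs, 19 of 21 between compartments and 6 of 7 within one. The 3 pairs that did not pass were Acot7 with Acot9, Acot7 with Acot13 and Acot9 with Acot13.

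Acot3 minus Acot1 was -3.18 to -2.21 on the log2 scale in controls (median -2.41) and -0.60 to 0.65 at 427 mg/kg-d (median 0.09). The 2 groups did not overlap, and their means differed by 2.61 (exact permutation test, adjusted p = 0.0030). The median was -3.08 at 198 mg/kg-d, below that of controls, and -2.17 at 313 mg/kg-d. Acot3 minus Acot2 went from -0.21 to 1.05 in controls (median 0.33) to 2.35 to 4.15 at 427 mg/kg-d (median 3.49, adjusted p = 0.0030 by the exact permutation test), with 0.80 to 1.79 at 313 mg/kg-d. Acot3 thus rose more than Acot1 and Acot2 from controls to 427 mg/kg-d, and most of that extra rise came between 313 and 427 mg/kg-d.

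Acot1 and Acot2 lie next to each other on the chromosome. With an offset of 1 CPM, Acot1 minus Acot2 had medians of 3.03, 3.20, 3.31 and 3.42 on the log2 scale from controls to 427 mg/kg-d. Its change at the highest dose was 0.45 with an offset of 1 CPM (exact permutation test, adjusted p = 0.027) but -0.75 with an offset of 0.1 CPM (adjusted p = 0.046). Which of the 2 rose more therefore depends on the offset, Acot2 having 12 reads or fewer in each control.

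**Figure D3:**
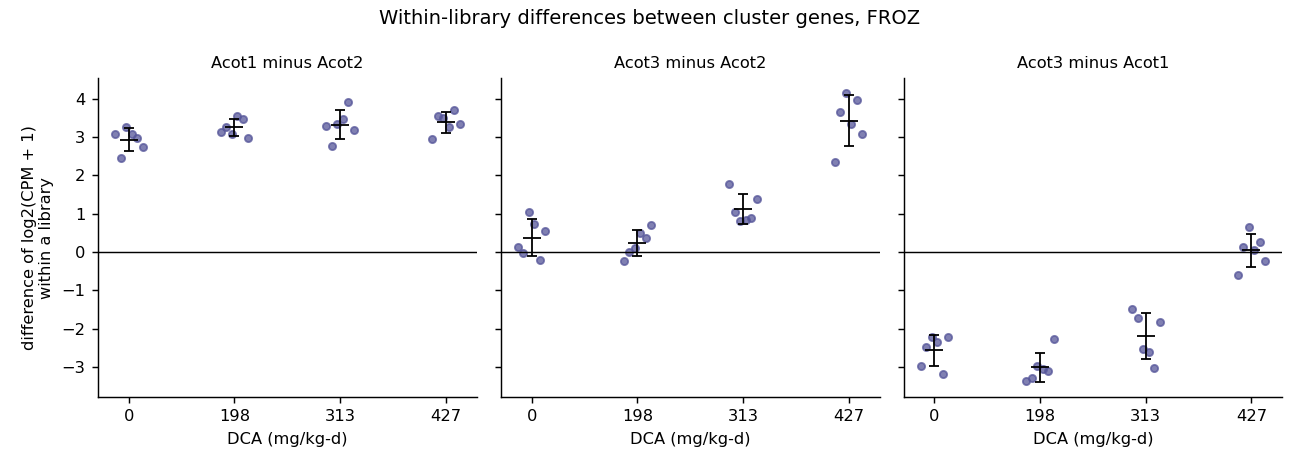
Difference between 2 cluster genes within each FROZ library, in log2(CPM + 1), against dose in mg/kg-d, with 1 point per animal and mean ± SD of 6 animals. Acot1 minus Acot2 has medians of 3.03 to 3.42 with this offset, while Acot3 minus Acot1 moves from a median of -2.41 in controls to 0.09 at 427 mg/kg-d and Acot3 minus Acot2 from 0.33 to 3.49.

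Animals of one dose differed. In the middle dose group animal 73 was highest and animal 78 lowest for Acot1, Acot2, Acot3 and Acot12. The ratio of highest to lowest CPM there was 13.3 for Acot1, 16.4 for Acot2 and 18.0 for Acot3, beside 1.39 for Acot13 and 1.49 for Acot7. Animal 73 was at the same time the lowest of its group for Acot6, Acot9 and Acot13. At 427 mg/kg-d animal 98 was lowest for Acot1, Acot2, Acot3 and Acot7, but the highest was animal 101 for Acot1, 97 for Acot2 and 99 for Acot3, and the ratios of the 3 cluster genes were 2.68 to 3.57. In controls the lowest animal was 8 for Acot1, 5 for Acot2 and 3 for Acot3, and at 198 mg/kg-d animal 50 was lowest for all 3. After the mean of each dose was taken out, the correlation over the 24 FROZ libraries was 0.93 between Acot1 and Acot2, 0.85 between Acot1 and Acot3 and 0.84 between Acot2 and Acot3. The same measure was -0.20 between Acot1 and Acot6 and 0.60 between Acot1 and Acot12. These correlations are descriptions, since the libraries share depth and scaling with both genes. Those among Acot1, Acot2 and Acot3 rest mostly on the 313 mg/kg-d group. Its SD was 1.33, 1.40 and 1.47 for these genes, against 0.52, 0.55 and 0.73 at 427 mg/kg-d, the next widest group.

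**Figure D4:**
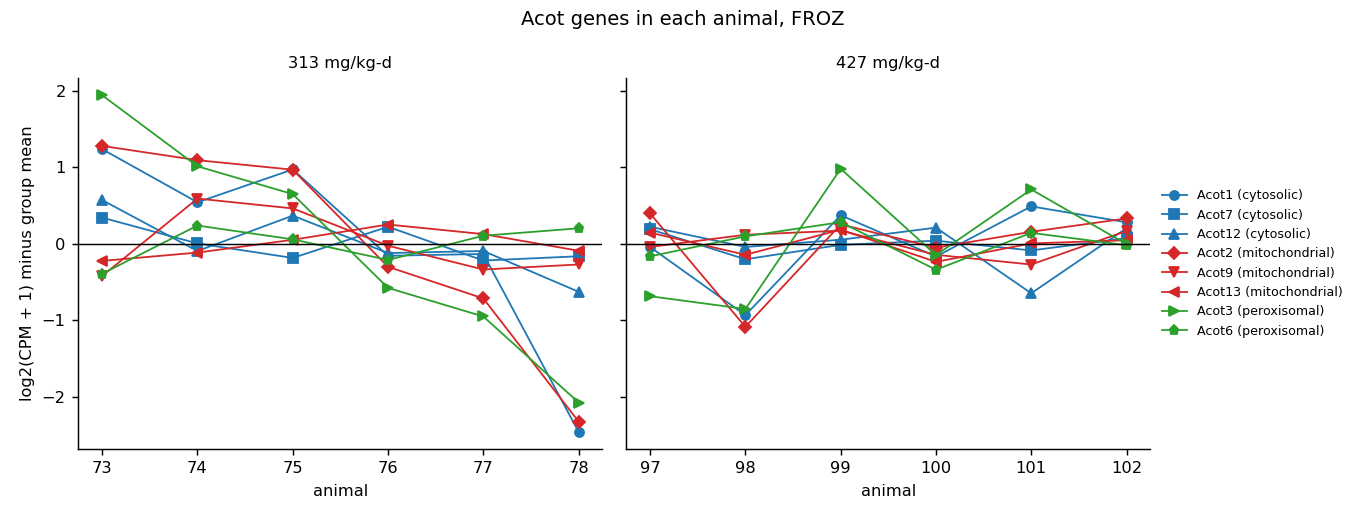
Level of each Acot gene minus its group mean, in log2(CPM + 1), for the 6 animals at 313 mg/kg-d (left) and at 427 mg/kg-d (right) in FROZ liver, with 1 line per gene coloured by compartment. Acot1, Acot2 and Acot3 are highest in animal 73 and lowest in animal 78, and the other genes spread less.

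The promoters of the 3 most changed genes and of Acot12 are shown because these 4 genes had the same highest and the same lowest animal at 313 mg/kg-d. Each window runs from 250 bases before to 50 after the start site, from RefSeq on GRCm38.p6, and 11 of 13 Acot genes had an entry (none for Acot6 or Acot13). PPAR alpha binds with RXR to direct repeats of AGGTCA spaced by 1 base, so AGGTCANAGGTCA was searched on both strands with up to 2 mismatches, and AGGTCA alone without any. Capitals mark matches. The windows are Acot1 at chr12:84009252-84009551, Acot2 at chr12:83987611-83987910, Acot3 at chr12:84051894-84052193 (the first of 2 entries) and Acot12 at chr13:91741271-91741570, all on the plus strand.
Acot1: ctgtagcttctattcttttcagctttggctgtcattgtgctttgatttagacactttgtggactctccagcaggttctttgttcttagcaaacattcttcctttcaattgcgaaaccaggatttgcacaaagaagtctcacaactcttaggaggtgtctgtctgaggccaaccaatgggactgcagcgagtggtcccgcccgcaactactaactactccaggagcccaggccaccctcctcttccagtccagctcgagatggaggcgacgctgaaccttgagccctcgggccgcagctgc
Acot2: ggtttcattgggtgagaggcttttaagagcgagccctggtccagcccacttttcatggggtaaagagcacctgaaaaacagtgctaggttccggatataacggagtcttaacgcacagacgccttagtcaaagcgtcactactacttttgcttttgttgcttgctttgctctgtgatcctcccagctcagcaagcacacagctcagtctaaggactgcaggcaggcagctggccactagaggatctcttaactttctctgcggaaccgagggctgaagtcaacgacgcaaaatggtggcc
Acot3: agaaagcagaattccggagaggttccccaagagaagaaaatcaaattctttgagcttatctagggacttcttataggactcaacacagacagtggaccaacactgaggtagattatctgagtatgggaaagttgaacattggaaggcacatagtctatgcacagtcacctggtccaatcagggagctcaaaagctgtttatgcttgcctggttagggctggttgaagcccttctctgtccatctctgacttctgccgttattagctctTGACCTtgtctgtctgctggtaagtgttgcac
Acot12: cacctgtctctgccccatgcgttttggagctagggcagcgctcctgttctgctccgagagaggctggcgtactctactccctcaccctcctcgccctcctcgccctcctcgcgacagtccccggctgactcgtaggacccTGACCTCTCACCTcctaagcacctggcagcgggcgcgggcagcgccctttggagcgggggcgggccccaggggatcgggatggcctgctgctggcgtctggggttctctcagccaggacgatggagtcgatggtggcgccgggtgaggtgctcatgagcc

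The Acot12 window holds the repeat with 1 mismatch on the minus strand, read on the plus strand as TGACCTCTCACCT and beginning 110 bases before the start site. Of 32851 promoter windows 3.86% hold the repeat within 2 mismatches and 0.0396% hold it exactly. The Acot3 window holds AGGTCA once, on the minus strand, beginning 18 bases after the start site, and 16.3% of windows hold that half-site. Of the other listed members with an entry, Acot1, Acot2, Acot7 and Acot9 hold neither pattern in these windows, which says nothing of sites farther away. The longest run shared by the windows of any 2 Acot genes was 11 bases, between Acot9 and Acot11.

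Transcripts of the cluster share sequence with each other and with other genes. Of the 50-base windows of the annotated Acot1 transcripts 19.2% occur unchanged in another gene, most often in Acot2, which holds 13.6%. For Acot2 the share was 27.7%, with 24.5% found in Acot1. The share was 19.1% for Acot3, with 10.97% found in the gene model Gm49366 and 5.98% in Acot5. It was 3.77% for Acot6, found in 271 genes, most often in Acot4, which holds 2.45%, while Acot5 holds 2.37%. For Acot9 the share was 15.2%, all of it with Acot10. It was 0 for Acot7, Acot12 and Acot13. The positions of the detector oligos were not used here, so for the cluster genes and Acot9 reads of a near-identical copy could be counted with a member.

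The genes most like each member over the 24 FROZ libraries were named by Pearson r on the log2 scale, as a description over libraries that share the dose groups. Acot1 and Acot2 had the same 2 leading genes, Retsat (r = 0.989 and 0.990) and Hsd17b11 (r = 0.983 and 0.985), followed by Cpt2 for Acot1 (r = 0.981) and Hsdl2 for Acot2 (r = 0.980). Retsat encodes retinol saturase and Cpt2 the inner-membrane carnitine palmitoyltransferase. Acot3 was most like Plin2, a lipid droplet coat protein (r = 0.973), Dusp3 (r = 0.971) and Nfe2l1 (r = 0.971). Acot12 was most like Hsdl2 (r = 0.936), Hadha (r = 0.934), a subunit of the mitochondrial trifunctional protein, and Mmd (r = 0.929). Acot6 was most like Krt23 (r = 0.907), Cyp2a4 (r = 0.903) and Crk (r = 0.900). For Acot7 the leading gene was Parl (r = 0.914), followed by Cryz (r = 0.882) and Glod4 (r = 0.881). For Acot13 it was Crls1 (r = 0.891), before Adh1 (r = 0.805) and Ddah1 (r = 0.785). For Acot9 it was Kif2a (r = 0.855), before Hpf1 (r = 0.819) and Rfc4 (r = 0.797).

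Among other genes that make or use acyl-CoA and coenzyme A, none of those named here had a log2 difference as large as that of Acot1, Acot2 or Acot3 at 313 or 427 mg/kg-d. Of 11 thioesterases with other names 8 were listed in FROZ, and at 427 mg/kg-d only Hibch, of valine breakdown, passed the test (0.46 ± 0.08, adjusted p = 4.1e-05), a share of the list below the 22.7% of all genes called higher, with a list median of 0.06 beside 0.10 over all genes. At 313 mg/kg-d Hibch and Them7 rose by 0.36 and 0.40 and Baat, which conjugates bile acids, fell by 0.32 on the log2 scale (adjusted p = 0.016). Of 23 acyl-CoA synthetases, which run the reverse reaction, 17 were listed, and at 427 mg/kg-d 9 rose and 1 fell (list median 0.43), where 22.7% of all genes rose. Acsl1, the main long-chain synthetase of liver, rose by 1.23 ± 0.16 (adjusted p = 1.6e-06). The mitochondrial Acss3 rose by 2.09 ± 0.22 (adjusted p = 3.2e-08), and the medium-chain Acsm2 fell by 1.102 on the log2 scale (adjusted p = 9.8e-05). Of 13 genes of coenzyme A synthesis and breakdown 11 were listed, and 5 rose at 427 mg/kg-d (list median 0.18), again beside 22.7% of all genes. Pank1, a rate-setting kinase of coenzyme A synthesis, rose by 1.24 ± 0.14 at 313 mg/kg-d (adjusted p = 4.2e-07) and by 1.53 ± 0.14 at 427 mg/kg-d (adjusted p = 5.0e-09). Of the receptor genes, Ppara differed by 0.02 ± 0.15 at 313 mg/kg-d (adjusted p = 0.94) and rose by 0.39 ± 0.15 at 427 mg/kg-d (adjusted p = 0.043), and Hnf4a rose by 0.45 ± 0.12 there (adjusted p = 0.0044). Rxra differed by -0.02 ± 0.09 at both doses, with adjusted p-values of 0.88.

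The second question was what fixed tissue of the same animals showed. In FFPE liver Acot1 rose at 313 and 427 mg/kg-d and Acot3 at 427 mg/kg-d, and no other member passed. The Acot3 call is limited by the way genes came to be listed, as given below. Of the 5 listed members, 0 passed at 198 mg/kg-d (0.0599% of 6673 genes), with Acot13 alone at an unadjusted p under 0.05. Again the share of all genes under the unadjusted limit is not given. At 313 mg/kg-d 1 passed (0.764% of all genes called higher) and at 427 mg/kg-d 2 passed (1.54%). The same genes exceeded 2-fold, against 0.584% and 1.23% of all genes. The median log2 difference of the 5 members was -0.80, 0.35 and 1.60 in order of dose, beside -0.19, -0.12 and 0.18 over all genes. Zeros differed by dose group. A library listed 132 to 793 genes at 0 in controls, 153 to 1586 at 198 mg/kg-d, 163 to 1442 at 313 mg/kg-d and 65 to 250 at 427 mg/kg-d. The part of this in the Acot differences was not tested.

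Acot1 in FFPE was at 5.33 to 69.6 CPM in controls (median 14.5 CPM), the highest being animal 3. It ran from 19.0 to 44.8 CPM in 5 animals at 198 mg/kg-d and was listed at 0 in animal 49, where 3 reads would have been 1.64 CPM. It was at 69.1 to 550 CPM at 313 mg/kg-d (median 276 CPM) and at 415 to 785 CPM at 427 mg/kg-d (median 657 CPM). At 427 mg/kg-d no animal overlapped the controls, and at 313 mg/kg-d only animal 78, the lowest in FROZ as well, did. The log2 difference from controls was 3.81 ± 0.65 at 313 mg/kg-d (adjusted p = 0.00045) and 5.21 ± 0.65 at 427 mg/kg-d (adjusted p = 1.4e-06). At 198 mg/kg-d it was -0.10 ± 0.65 (adjusted p = 0.97).

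Acot3 in FFPE reached 7.55 CPM at most in controls, of which 2 had no read, and was listed at 0 in 4 of 6 animals at 198 mg/kg-d. It ran from 0.261 to 49.6 CPM at 313 mg/kg-d (median 12.3 CPM) and from 53.4 to 266 CPM at 427 mg/kg-d (median 135 CPM). All 6 animals of the highest dose lay above all controls, and at 313 mg/kg-d 3 of 6 did. The log2 difference from controls was 1.23 ± 0.98 at 313 mg/kg-d (adjusted p = 0.69) and 5.11 ± 0.98 at 427 mg/kg-d (adjusted p = 0.0014). In all, 2 of 5 members had no overlap between the 427 mg/kg-d group and controls, beside 2.94% of all genes. The authors removed genes with a low geometric mean over all libraries. High values at 427 mg/kg-d therefore helped Acot3, at 0 in several other libraries, to be listed. Whether Acot3 would be listed without that group was not tested. Its result at 427 mg/kg-d and the counts of 2 members there are not independent of the listing, and are given as description only.

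Acot12, Acot7 and Acot13 did not pass in FFPE at any dose. At 427 mg/kg-d Acot12 was at 62.2 to 148 CPM against 23.6 to 82.3 CPM in controls (log2 difference 0.88 ± 0.42, adjusted p = 0.55). Acot7 was at 34.6 to 77.5 CPM against 13.7 to 64.9 CPM in controls (0.83 ± 1.00, adjusted p = 1.0). Acot7 was listed at 0 in animals 49 and 54 at 198 mg/kg-d and in animal 73 at 313 mg/kg-d, although these 3 animals had 26.1, 26.6 and 37.9 CPM in FROZ. Acot13 was at 16.1 to 60.9 CPM at 427 mg/kg-d against 0 to 25.2 CPM in controls (1.60 ± 0.94, adjusted p = 0.77). The SE of these members was 2.7 to 10.4 times that in FROZ. With array quality weights Acot12 passed at 427 mg/kg-d (0.98, adjusted p = 0.037).

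**Figure D5:**
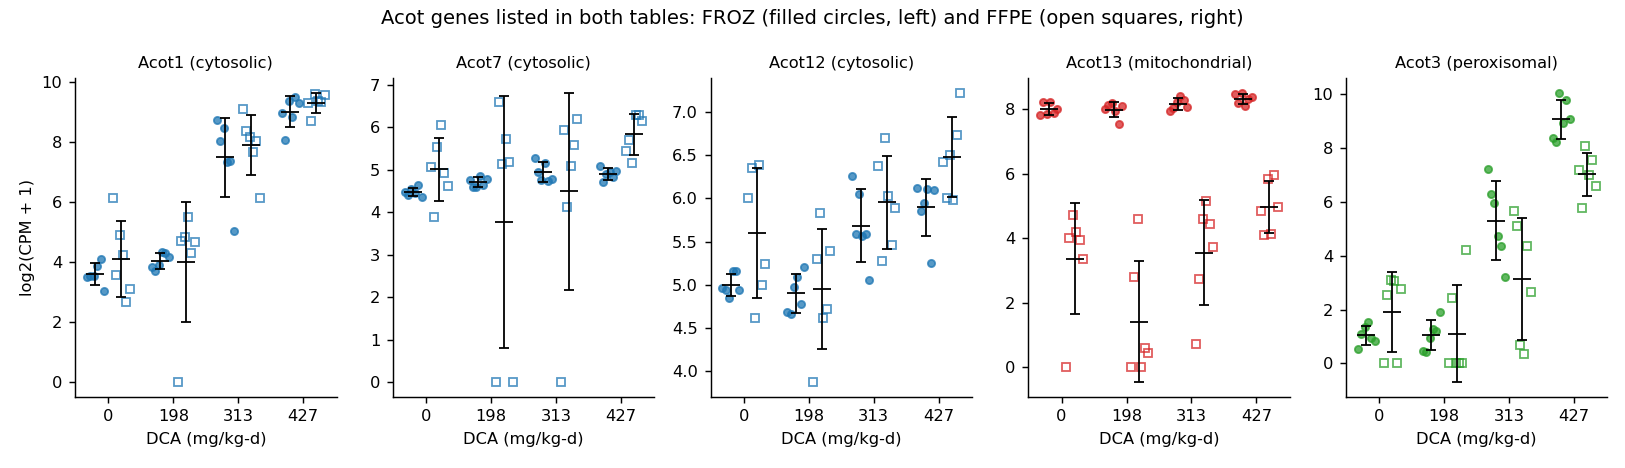
Level of the 5 Acot genes listed in both tables, as log2(CPM + 1) against dose in mg/kg-d, in FROZ (filled circles) and FFPE (open squares), with 1 point per library and mean ± SD of 6 animals. Vertical axes differ between genes and not all start at 0. At 427 mg/kg-d Acot1 has medians of 9.14 in FROZ and 9.36 in FFPE and Acot3 of 8.98 and 7.08, and Acot13 stays below 6 in FFPE and above 7.5 in FROZ.

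The 2 preservations were then compared within animals, from the difference between the FFPE and the FROZ value of each mouse, over 6591 genes listed in both tables. The DCA response of no member differed at an adjusted p under 0.05 (0 of 5 at each dose, against 0.0303%, 0% and 0.0303% of all genes at the 3 doses). Acot13 at 198 mg/kg-d and Acot3 at 313 and 427 mg/kg-d had an unadjusted p under 0.05. The share of all genes under that unadjusted limit is not given, so no member is counted by it. For Acot1 the response at 427 mg/kg-d differed by -0.20 on the log2 scale, with a 95% interval from -1.60 to 1.21. For Acot3 the response in FFPE minus that in FROZ was -3.03 ± 0.84 at 313 mg/kg-d (adjusted p = 0.47) and -2.91 ± 0.84 at 427 mg/kg-d (adjusted p = 1.0).

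In control livers the level of 1 member, Acot13, differed between preservations, while 53.3% of all genes did. Acot13 was at 225 to 301 CPM in the FROZ controls and at 0 to 25.2 CPM in the FFPE controls of the same animals, a log2 difference of -4.64 ± 0.60 (adjusted p = 7.4e-07), lower in 6 of 6 animals. Acot12 differed by 0.60 ± 0.27 (adjusted p = 0.062), and leaving out animal 5 or 7 gave 0.76 and 0.75 with adjusted p-values of 0.031 and 0.036. For Acot1, Acot3 and Acot7 the FFPE minus FROZ log2 difference was 0.50 to 0.86, with adjusted p-values of 0.23 to 0.59. The tables were scaled to CPM separately, so a level set across them depends on which genes each table lists.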

How the data were processed

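TempO-Seq libraries from 24 mice were analysed, 1 FROZ and 1 FFPE library per mouse, grouped by the dose and animal in the labels. The authors aligned the reads with STAR 2.6 in Partek to mm10, estimated counts per RefSeq transcript, removed genes with a low geometric mean, scaled each table to counts per 1000000 (CPM) and deposited log2(CPM + 1) values. Abundant transcripts were attenuated in the assay, and no Acot transcript is named among them. The deposited log2 values are not counts, so no count model was used. Reads were recovered only to describe depth, from the smallest step between low values. Of the low values, 96.2 to 97.1% (FROZ) and 83.4 to 95.2% (FFPE) came out whole within 0.05 reads. A listed 0 may be a failed estimate, and limits of 3 reads cover counting error only.

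Each table was fitted whole with limma 3.58.1 in R 4.3.3 (variance trend, 24 libraries, 4 groups) and p-values were adjusted by the Benjamini-Hochberg method over all its genes (FDR). Differences between the FFPE and the FROZ value of each mouse were fitted in the same way over 6591 genes. The pairing comes from the animal numbers. Over the 4815 genes averaging 10 CPM or more in both tables, deviations from the group means had a median r of 0.128 between libraries of an animal and of -0.0232 between animals of a dose, and in 21 of 24 animals a library correlated best with the other library of its own animal. Exact permutation tests went through every division of the animals, and scipy 1.17.1 adjusted their p-values. The scripts were tested on data with known answers. The step from an offset of 1 CPM to 0.1 CPM, median-ratio scaling, a minimum mean of 10 CPM, a variance prior without trend, array quality weights, fits of 2 groups and leaving out each animal were the alternatives. All members were named, other genes by membership in a list of the pathway or by the 3 highest correlations with a member. Members and lists were chosen with earlier results of these data known. Gene positions and transcripts are from GENCODE on GRCm38, promoters from RefSeq on GRCm38.p6.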

Additional observations from a re-analysis of the deposited data

Results flagged for a closer look

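Of 52 groups of 6 animals (8 members in FROZ and 5 in FFPE, 4 doses), 7 held a sample far below the others, its gap to the nearest taking more than 0.625 of the range of the group. Chance flags about 1 in 20 groups. In FROZ, Acot2 was at a log2 value of 4.55 in animal 98 at 427 mg/kg-d, against a median of 5.84. In FROZ, Acot9 was at 2.06 in animal 49 at 198 mg/kg-d, against a median of 2.84. In FROZ, Acot12 was at 5.25 in animal 101 at 427 mg/kg-d, against a median of 6.02. In FFPE, Acot1 was at 8.70 in animal 98 at 427 mg/kg-d, against a median of 9.36. The other 3 were listed at 0 in FFPE, namely Acot1 in animal 49 at 198 mg/kg-d (median 4.71), Acot7 in animal 73 at 313 mg/kg-d (median 5.34) and Acot13 in control animal 3 (median 3.98). Animals 49, 73 and 3 had 1586, 1442 and 793 genes listed at 0 in FFPE, and the part of this in the Acot values was not tested.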

How the results depend on the processing

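The counts of members past the test were within 1.5 times the reported counts under every alternative, except that leaving out an animal gave 1 to 2 members with a control level that differed between preservations. On leaving out an animal, the FROZ counts ran from 6 to 7 of 8 at both 313 and 427 mg/kg-d and the FFPE counts did not move. Acot6 and Acot9 fell below the minimum mean of 10 CPM and had no value there. The no replicate block fit, which treats both libraries of an animal as unpaired, gave 0, 0 and 0 members with a different response and 1 with a different control level, and the block changed no call. Directions changed only in differences that had not passed, apart from Acot1 minus Acot2. That pair changed by -0.75 with an offset of 0.1 CPM. With median-ratio scaling Acot9 in FROZ was at -0.055 at 198 and -0.030 at 427 mg/kg-d. With array quality weights Acot1 in FFPE was at 0.61 at 198 mg/kg-d and Acot13 at -0.042 at 313 mg/kg-d, and Acot12 at 427 mg/kg-d passed (0.98, adjusted p = 0.037). On leaving out an animal, log2 differences at 198 mg/kg-d in FROZ ran from -0.18 to 0.12 for Acot3, from -0.054 to 0.17 for Acot9 and from -0.066 to 0.066 for Acot13. In FFPE they ran from -0.40 to 0.71 for Acot1 at 198 mg/kg-d, from -0.86 to 0.38 for Acot7 at 313 mg/kg-d and from -0.49 to 0.75 for Acot13 at 313 mg/kg-d. For the difference in response between preservations they ran from -0.93 to 0.22 for Acot1 at 198 mg/kg-d, from -0.47 to 0.34 for Acot1 at 313 mg/kg-d, from -0.59 to 0.23 for Acot1 at 427 mg/kg-d, from -0.60 to 0.55 for Acot13 at 313 mg/kg-d and from -0.19 to 0.15 for Acot12 at 427 mg/kg-d. The cause was not tested. With an offset of 0.1 CPM the differences at 427 mg/kg-d in FROZ grew for the members with few control reads, to 6.28 for Acot2, 8.90 for Acot3 and 2.87 for Acot6.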
